A study of Mus musculus with 9 samples.

Results

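The BCL-2 family decides, at the outer membrane of the mitochondrion, whether a cell under stress lives or dies. Here 10 of its genes were followed, of 56289 genes in the deposited table, taken by name from a list of the family's best-known genes. The survival genes were Bcl2, Bcl2l1 and Mcl1, the BH3-only genes were Bcl2l11 (Bim), Bbc3 (Puma), Pmaip1 (Noxa), Bid and Bad, and the effectors were Bax and Bak1. The RNA came from cultures of the mouse line RAW264.7, which the labels describe as macrophage cells of strain BALB/c. Poly(A) RNA was sequenced in 9 libraries, in 3 groups of 3: untreated cells (Con), cells given recombinant human TNF-α at 20 ng/ml for 24 h (TNF-α), and cells given the same TNF-α with WBT at 1.0 μg/ml (TNF-α+WBT). WBT is an extract of the Wang Bi tablet, a herbal medicine used against rheumatoid arthritis, and the labels call it WBP. The study looked for genes that TNF-α changed and that WBT moved back, and no library was given WBT without TNF-α. The cultures are of 1 line and the ligand was human, which limits them as a model of mouse tissue, since human TNF-α is known to engage only the mouse receptor encoded by Tnfrsf1a.

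In background terms, the survival proteins hold the effectors and the BH3-only proteins in check by binding them in a groove on their surface. BH3-only proteins report damage: Puma and Noxa are made when p53 is active, Bim follows growth factor loss, Bad answers to kinases, and Bid is cut by caspase-8 below death receptors. Once freed or activated, Bax and Bak form pores through which cytochrome c leaves to start the caspases. TNF is known both for the death signal that runs through caspase-8 to Bid and for the NF-κB signal that raises survival genes, Bcl2l1 and the Bcl2a1 genes among them.

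The labelled cell type went against its markers. Of 14 macrophage markers, 7 were listed at 0 in all libraries (Spi1, Ctss, Adgre1, Cybb, Ptprc, Tyrobp and Itgam) and 1 lay above 1 FPKM throughout, and the summed level of the list was 6.03 to 7.35 FPKM in Con, 6.94 to 8.03 in TNF-α and 7.16 to 8.49 in TNF-α+WBT. Of 14 fibroblast markers 12 lay above 1 FPKM in all libraries with 1 listed at 0 (Lum), and their sum was 5345 to 5702 FPKM in Con, 5635 to 5926 in TNF-α and 5616 to 5727 in TNF-α+WBT. After TNF-α, 2 of the 13 tested fibroblast markers were called higher (Col1a1 and Col1a2) and 2 lower (Pdgfrb and Postn). Of 12 Schwann cell markers 8 lay above 1 FPKM with 1 listed at 0 (Gfra3), and their sum was 925 to 982 FPKM in Con, 751 to 813 in TNF-α and 817 to 846 in TNF-α+WBT. The Schwann list thus stood lower after TNF-α, with 5 of its 11 tested genes called lower and none called higher, and the part of either list in the differences reported below was not tested. In such bulk cultures fewer cells of a type and less RNA per cell cannot be told apart.

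The promoters of the 3 members that rose after TNF-α are shown first, with that of Mcl1 for comparison, because NF-κB answers TNF receptors and p53 is known to drive Bbc3 and Bax. Each line holds the 250 bases before a RefSeq start site, in the GRCm38.p6 build and on the strand of the gene, and capitals mark the letters GGGNNNNNCC, a loose form of the κB site in which N is any base, found on either strand with overlapping matches allowed. The Bbc3 window is chr7:16309333-16309582 on the plus strand and lies before the first of its 3 RefSeq starts. The Bid window is chr6:120916825-120917074 and the Bax window chr7:45466899-45467148, both on the minus strand. The Mcl1 window is chr3:95658471-95658720 on the plus strand. In GENCODE M21 the Bbc3 gene spans chr7:16308393-16318205, Bid chr6:120891930-120916853, Bax chr7:45461697-45466898 and Mcl1 chr3:95658788-95663176.
Bbc3: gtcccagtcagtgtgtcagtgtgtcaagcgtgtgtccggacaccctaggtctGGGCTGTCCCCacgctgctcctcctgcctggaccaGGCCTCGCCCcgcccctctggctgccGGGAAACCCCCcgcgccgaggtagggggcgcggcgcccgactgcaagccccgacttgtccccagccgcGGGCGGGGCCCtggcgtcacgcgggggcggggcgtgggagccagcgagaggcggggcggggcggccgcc
Bid: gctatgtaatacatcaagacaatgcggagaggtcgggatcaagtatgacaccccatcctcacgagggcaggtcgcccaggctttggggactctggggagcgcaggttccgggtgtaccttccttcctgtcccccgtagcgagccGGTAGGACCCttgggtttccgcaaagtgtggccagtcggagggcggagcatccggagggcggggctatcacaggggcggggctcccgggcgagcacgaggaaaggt
Bax: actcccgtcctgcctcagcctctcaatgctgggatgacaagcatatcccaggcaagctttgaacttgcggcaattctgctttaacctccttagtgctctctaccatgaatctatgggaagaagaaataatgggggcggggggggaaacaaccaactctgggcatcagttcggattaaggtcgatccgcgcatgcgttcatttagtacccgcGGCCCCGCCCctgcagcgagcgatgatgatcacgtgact
Mcl1: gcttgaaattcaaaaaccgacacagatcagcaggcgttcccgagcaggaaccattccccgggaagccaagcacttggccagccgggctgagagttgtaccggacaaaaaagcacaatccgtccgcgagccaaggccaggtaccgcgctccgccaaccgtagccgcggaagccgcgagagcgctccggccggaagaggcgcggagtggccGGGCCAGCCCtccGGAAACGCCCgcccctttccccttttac
The Bbc3 window held 7 matches, the Mcl1 window 2, and the Bid and Bax windows 1 each. Among all 32851 promoter windows of this length 45.8% held the letters, so a match is common. Of 15 windows from 9 of the members, 13 held them, and no window of Pmaip1 is reported here. The Bax window was the only 1 of the 15 with the half-site of the p53 response element, 192 to 201 bases before its start, where 7.13% of all windows held it. GC content was 76.4% in the Bbc3 window, 63.6% in that of Bid, 54.0% in that of Bax and 64.4% in that of Mcl1. Over the 15 windows of members it ran from 47.6% to 81.6%, beside a median of 52.4% over all windows. The match counts were not adjusted for GC content. These matches describe the letters of the windows and not binding.

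The members spanned a wide range of levels. Per length, as FPKM (fragments scaled to transcript length and library depth), Bax had the highest mean over the 9 libraries at 74.4 ± 6.84 (SD) and Mcl1 the next at 58.9 ± 1.77. Bid followed at 41.9, Bbc3 at 27.4, Bak1 at 23.4 and Bad at 17.6. Bcl2l1 at 9.32, Bcl2l11 at 8.36, Bcl2 at 4.95 and Pmaip1 at 2.58 were the low members. Bax lay above Mcl1, and Mcl1 above Bid, with no overlap across the 9 libraries, and so did Bcl2l11 above Bcl2 and Bcl2 above Pmaip1. The neighbours from Bid down to Bcl2l11 overlapped in their ranges. The estimated fragments behind a value ran from 126 to 165 per library for Pmaip1 up to 3416 to 5439 for Mcl1, so that Pmaip1 was the member measured with fewest.

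**Figure D1:**
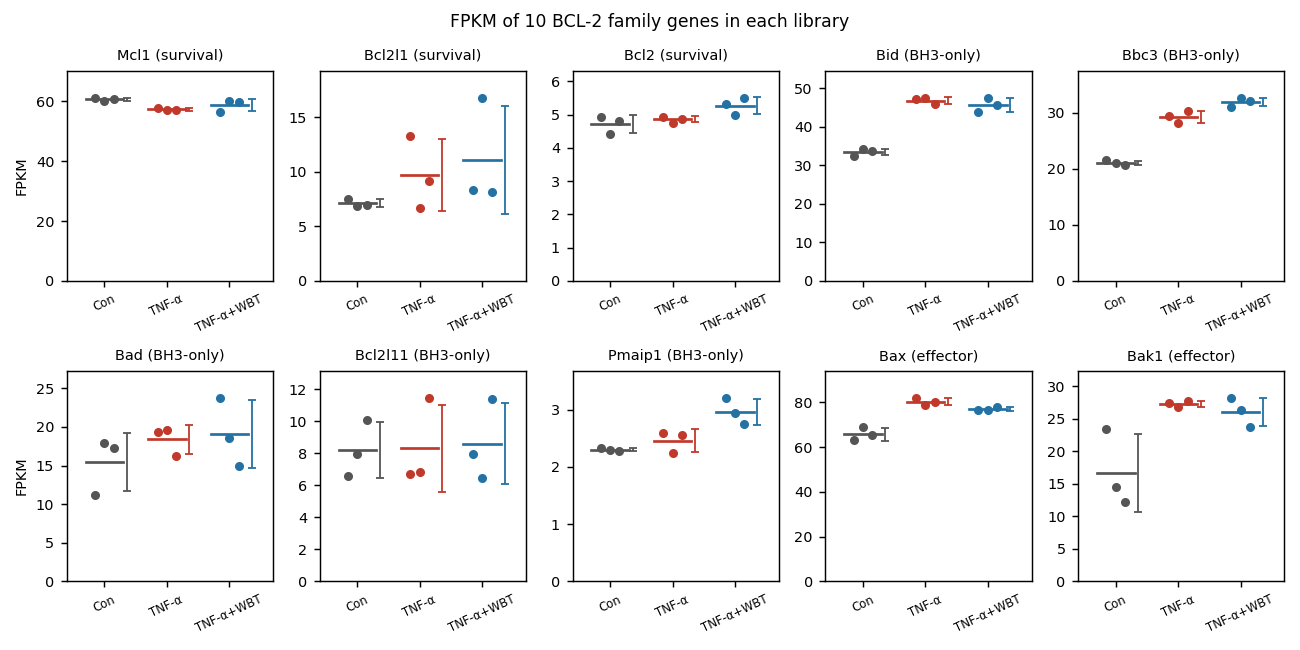
FPKM of the 10 genes (vertical axes, each from 0) in Con, TNF-α and TNF-α+WBT; points are the 3 libraries, horizontal lines the means and the side bars ± 1 SD. For Bbc3, Bid and Bax the points of both TNF-α groups lie above all Con points, while those of Bcl2l11 mix.

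The first comparison asked what TNF-α did to the family. Bid rose by 39.8%, Bbc3 by 39.2% and Bax by 22.2%, and no member was called lower. By limma on log2(FPKM + 0.1), with a call at a Benjamini-Hochberg adjusted p under 0.05 over all tested genes, 3 of the 10 members were called higher, where 2.94% of the 25417 tested genes were, and 0 of 10 were called lower, where 1.93% were. Most tested genes are low, and among the 12684 whose mean FPKM reached 1, as that of each member did, 8.37% were called in either direction. Without adjustment 5 of 10 had a p under 0.05, beside 4088 of the 25417 tested genes and 3054 of the 12684 whose mean reached 1. Limma-voom on estimated fragments called 4 of 10, and its share over all genes is not given here. A second rule took a fold change above 2, as the study did, and a p under 0.05, here before adjustment, and 0 of the 10 passed it, where 2.42% of genes did. The groups did not overlap for 5 of 10 (4 higher and 1 lower), beside 21.2% of all tested genes. The median log2 fold change was 0.28 over the members and 0.00 over all tested genes. The members were chosen with earlier results of these data known, so the shares set beside them are a description.

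Among the BH3-only genes, Bid encodes the protein that links death receptors to the mitochondrion. It lay at 32.5, 34.1 and 33.7 FPKM in Con and at 47.0, 47.4 and 45.8 FPKM in TNF-α. Every TNF-α library stood above every Con library, by far more than the spread within a group. The log2 fold change was 0.48 ± 0.04 (SE), with an adjusted p of 0.000183 by limma. The exact two-sided permutation test on 3 against 3 libraries gave p = 0.1, the smallest it can give, as it did for each member whose groups did not overlap.

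Bbc3, which encodes Puma, a protein able to bind all the survival members, was the most even of the induced genes in Con. Its FPKM was 21.5, 21.0 and 20.6 in Con and 29.4, 28.2 and 30.3 in TNF-α. All TNF-α values lay above all Con values. The log2 fold change was 0.48 ± 0.04, with an adjusted p of 0.000255 by limma.

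Pmaip1 encodes Noxa, which binds mainly MCL-1. Its FPKM was 2.33, 2.30 and 2.28 in Con and 2.60, 2.24 and 2.55 in TNF-α, so that the groups overlapped. The log2 difference was 0.09 with a 95% interval of -0.15 to 0.33. Bcl2l11 encodes Bim, and stood at 6.55, 7.96 and 10.1 FPKM in Con and at 6.68, 6.80 and 11.4 FPKM in TNF-α. The spread among libraries of a group exceeded the difference between them, and its interval ran from -0.62 to 0.61 on the log2 scale. Bad, whose protein is held inactive by phosphorylation, stood at 11.2, 17.9 and 17.3 FPKM in Con and at 19.3, 19.7 and 16.2 FPKM in TNF-α. Its groups overlapped too, with a log2 difference of 0.27 (interval -0.21 to 0.75). Con replicate 1 was the low library, and without it the difference was 0.06.

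Of the effectors, Bax was at 63.0, 68.8 and 65.5 FPKM in Con and at 81.8, 79.0 and 80.2 FPKM in TNF-α. All TNF-α libraries lay above all Con libraries. The log2 fold change was 0.29 ± 0.04, with an adjusted p of 0.00295 by limma. Bak1, the second effector, was at 23.4, 14.5 and 12.1 FPKM in Con and at 27.4, 26.8 and 27.8 FPKM in TNF-α. The first Con library sat between the other Con libraries and the TNF-α group, which itself was tight. The log2 difference of 0.77 ± 0.20 was the largest among the members and was not called (adjusted p = 0.0798 by limma). It was called without that Con library (1.04, adjusted p = 0.00106), when only genes reaching a mean FPKM of 1 were tested (adjusted p = 0.0445) and by limma-voom (0.66, adjusted p = 0.0376), in a range of 0.00106 to 0.205 over the 20 alternative settings.

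The survival genes did not pass the test. Mcl1, which encodes a short-lived protein, was at 61.1, 60.2 and 60.8 FPKM in Con and at 57.9, 57.1 and 57.1 FPKM in TNF-α. All 3 TNF-α values were below all 3 Con values, by a small margin. The log2 difference was -0.08 ± 0.03, with an unadjusted p of 0.0369 and an adjusted p of 0.266 by limma. Bcl2, the founding member of the family, was at 4.93, 4.42 and 4.81 FPKM in Con and at 4.93, 4.76 and 4.88 FPKM in TNF-α, and the difference of 0.04 had an interval of -0.12 to 0.21 on the log2 scale. Bcl2l1, which encodes BCL-XL, was at 7.53, 6.86 and 7.01 FPKM in Con and at 13.3, 6.71 and 9.19 FPKM in TNF-α. Its TNF-α libraries straddled the Con range, with 1 library well above the others, and the log2 difference of 0.39 had an interval of -0.31 to 1.09. Without that library it was 0.14.

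**Figure D2:**
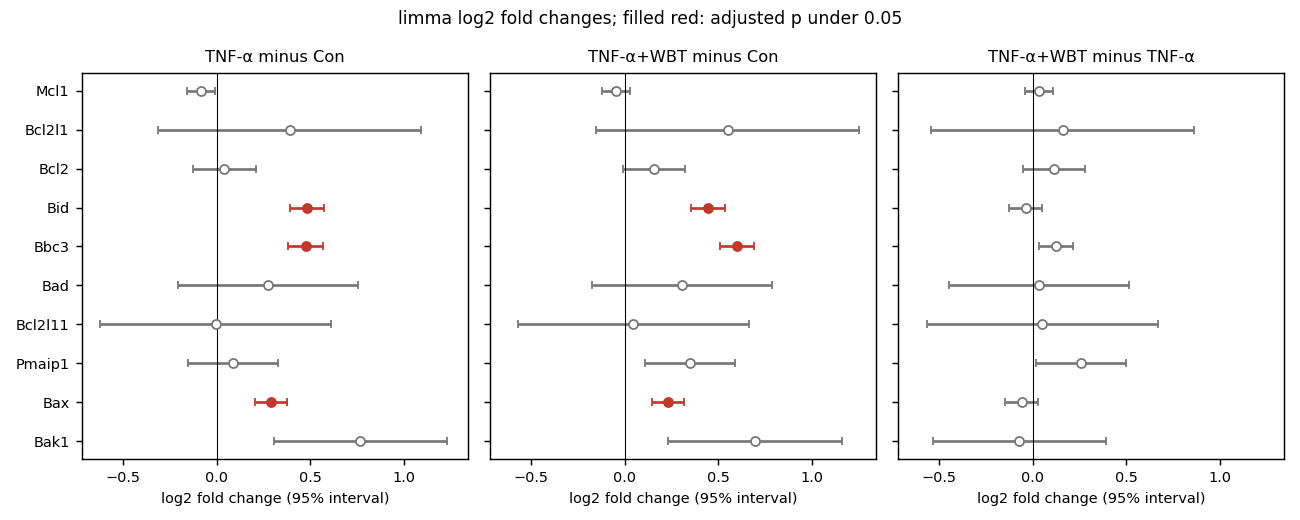
Log2 fold changes of the 10 genes (horizontal axis, on the log2(FPKM + 0.1) scale) with 95% intervals from limma, in 3 comparisons; filled red points have an adjusted p under 0.05. Bid, Bbc3 and Bax are filled in both comparisons with Con and no gene is in that of TNF-α+WBT with TNF-α.

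Adding WBT to TNF-α moved no member past the threshold. By limma 0 of 10 members were called and 2 had an unadjusted p under 0.05. Over all genes 1605 of 25417 tested had such a p, and 876 of the 12684 whose mean FPKM reached 1. Limma-voom called 0 of 10 with 1 at an unadjusted p under 0.05. Calls were rare throughout, at 0.00393% of tested genes (1 gene), and the rule of p and fold change was passed by 0 of 10 members and 1.12% of genes. The groups did not overlap for 4 of 10 members, 3 higher and 1 lower, where 11.0% of genes did not. The median log2 difference of the members was 0.04.

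Bbc3 stood at 31.1, 32.6 and 32.1 FPKM in TNF-α+WBT. Each value was above all 3 of TNF-α alone, and thus farther from Con than these. This held for the gene value and not for its leading coding transcript, Bbc3-201, as given below. The log2 difference from TNF-α was 0.12 ± 0.04, with an unadjusted p of 0.0146 and an adjusted p of 0.681 by limma. Pmaip1 stood at 3.20, 2.94 and 2.76 FPKM, again above all TNF-α libraries, with a log2 difference of 0.26 ± 0.11 (unadjusted p = 0.0380, adjusted p = 0.766 by limma). Bcl2 was the other member with 3 higher values, at 5.31, 5.00 and 5.50 FPKM, and its log2 difference was 0.11 (interval -0.05 to 0.28). Bax was the member with 3 lower values, at 76.4, 76.8 and 78.1 FPKM. Its log2 difference from TNF-α was -0.06 (interval -0.15 to 0.03), and its values stayed above those of Con.

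The other members overlapped between TNF-α+WBT and TNF-α. Bid was at 43.9, 47.3 and 45.5 FPKM, with a log2 difference of -0.04 (interval -0.13 to 0.05). Mcl1 was at 56.5, 60.2 and 59.6 FPKM, with a difference of 0.03 (interval -0.04 to 0.11). The intervals of Bid and Mcl1 were the narrower ones of this group of genes. Bak1 was at 28.2, 26.3 and 23.7 FPKM, with a difference of -0.07 (interval -0.53 to 0.39). Bad was at 23.7, 18.5 and 15.0 FPKM, with a difference of 0.03 (interval -0.45 to 0.51). Bcl2l11 was at 7.94, 6.42 and 11.4 FPKM, with a difference of 0.05 (interval -0.57 to 0.67). For Bak1, Bad and Bcl2l11 the spread within groups would hide moderate changes. Bcl2l1 was at 8.33, 16.8 and 8.19 FPKM, and again 1 library stood above the others, leaving a difference of 0.16 (interval -0.54 to 0.86) that became -0.18 without it.

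TNF-α+WBT was also set against Con, a comparison that shares its libraries with the 2 above and so adds no independent evidence. Bbc3 rose by 51.7% (log2 fold change 0.60 ± 0.04, adjusted p = 8.47e-05 by limma). Bid rose by 36.3% (0.45 ± 0.04, adjusted p = 0.000378 by limma). Bax rose by 17.2% (0.23 ± 0.04, adjusted p = 0.0119 by limma). These 3 of 10 members were called higher where 2.31% of all tested genes were, none was called lower where 1.40% were, and 6.46% of genes whose mean FPKM reached 1 were called in either direction. The groups did not overlap for 7 of 10 members, all higher, beside 19.5% of genes. Besides the 3 called genes these were Bcl2, Bcl2l1, Pmaip1 and Bak1. The Bax call was lost without the intensity trend (adjusted p = 0.121), without Con replicate 3 (0.0504) and without TNF-α+WBT replicate 3 (0.0510), in a range of 0.00279 to 0.121 over the alternative settings. Bak1 gave 0.69 ± 0.20 (adjusted p = 0.128 by limma) and was called without Con replicate 1 (0.97, adjusted p = 0.00203), in a range of 0.00203 to 0.283.

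The levels can also be read as ratios of death to survival genes within a library, given here as a description of the same values. Bax over Bcl2 was 12.8, 15.6 and 13.6 in Con, 16.6, 16.6 and 16.4 in TNF-α and 14.4, 15.4 and 14.2 in TNF-α+WBT. The TNF-α libraries were the highest and the TNF-α+WBT libraries fell within the Con range. Bax over Mcl1 gave another picture, at 1.03 to 1.14 in Con, 1.38 to 1.41 in TNF-α and 1.27 to 1.35 in TNF-α+WBT, with both treated groups above Con. Bid over Mcl1 was 0.532 to 0.567, 0.802 to 0.830 and 0.764 to 0.786 in the same order. Bbc3 over Mcl1, with the retained intron form described below counted in, was 0.340 to 0.352, 0.494 to 0.531 and 0.538 to 0.550. The ordering of the 2 treated groups thus depended on the genes taken. Mcl1 made up 73.4% to 84.2% of the summed FPKM of the 3 survival genes in the 9 libraries.

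**Figure D3:**
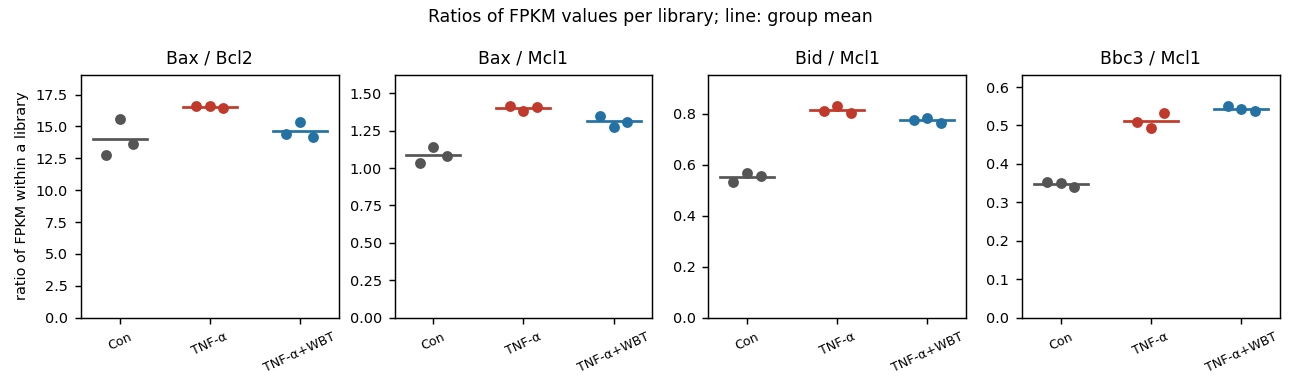
Ratios of FPKM within each library (vertical axes, each from 0) for Bax over Bcl2, Bax over Mcl1, Bid over Mcl1 and Bbc3 over Mcl1; points are libraries and lines group means. For the 3 ratios over Mcl1 both treated groups lie above Con, while Bax over Bcl2 in TNF-α+WBT lies between 14.2 and 15.4, inside the Con range of 12.8 to 15.6.

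The transcript table showed which forms carried these levels, as a description with no test. Bid-201, the leading coding form, held 82.1% to 93.2% of the gene's FPKM. It stood at 28.2 to 29.3 FPKM in Con, 38.4 to 41.3 in TNF-α and 37.4 to 41.7 in TNF-α+WBT. The rise of the gene was thus present in this leading form. Bbc3-201, coding, went from 9.48 to 12.0 FPKM in Con to 14.3 to 17.0 in TNF-α and 12.4 to 17.0 in TNF-α+WBT. A retained intron form, Bbc3-203, held 25.3% to 45.8% of the Bbc3 value. Its mean was 9.09 FPKM in TNF-α and 11.9 in TNF-α+WBT, while that of Bbc3-201 was 15.9 and 15.3. The higher Bbc3 value with WBT was thus not present in the leading coding form. For both forms the libraries of these 2 groups overlapped. The 2 leading coding forms of Bax, Bax-201 and Bax-203, held 41.2% and 49.2% of its FPKM on average. Only in Con replicate 2 did Bax-201 lead, with 41.8 FPKM against 19.8. The mean of Bax-201 was 30.2 FPKM in both Con and TNF-α, while that of Bax-203 was 28.9 and 42.9. The equal means of Bax-201 rest on Con replicate 2. The other Con libraries, at 23.15 and 25.8 FPKM, lay below all TNF-α libraries (29.5 to 31.7).

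Bak1 was split unstably. Bak1-204, a form annotated as a target of nonsense-mediated decay, was at 13.7, 6.01 and 0 FPKM in Con, 11.9, 18.5 and 18.5 in TNF-α and 20.04, 15.4 and 0 in TNF-α+WBT. The coding form Bak1-202 was at 8.37, 6.34 and 11.6 FPKM in Con, 14.8, 7.11 and 5.30 in TNF-α and 5.35, 9.59 and 21.9 in TNF-α+WBT. The groups of Bak1-202 overlapped, with means of 8.77 FPKM in Con and 9.06 in TNF-α. The means of Bak1-204 were 6.58 FPKM in Con and 16.3 in TNF-α, and its groups overlapped too. By these means the higher Bak1 value after TNF-α lay mainly in the form annotated for decay. The Con mean includes replicate 3 with Bak1-204 at 0, and in TNF-α replicate 1 Bak1-202 was the larger form. The unstable split thus does not settle which form carried the rise. The other coding form, Bak1-203, was low, at 0 to 0.282 FPKM in Con, 0.527 to 0.766 in TNF-α and 0.869 to 1.07 in TNF-α+WBT. These groups did not overlap, but the values are near the floor and were not tested. They rest on 0 to 6.63 estimated fragments per library in Con and 10.0 to 16.2 in the treated groups. The 2 libraries in which Bak1-204 was listed at 0 gave Bak1-202 92.1% and 95.6% of the gene.

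The libraries that stood apart for Bcl2l1 did so in different forms. TNF-α replicate 1 held 9.64 FPKM of Bcl2l1-202, which was between 3.29 and 6.59 FPKM in the other libraries. TNF-α+WBT replicate 2 held 8.44 FPKM of Bcl2l1-201, which was at most 0.931 FPKM elsewhere. For Bcl2l11 the high libraries of both treated groups, replicate 3 of each, held 8.996 and 8.541 FPKM of Bcl2l11-205, beside 3.80 to 5.16 in the other libraries, whereas the highest Con library held 4.54 FPKM of Bcl2l11-203. In Bad the forms Bad-205 and Bad-208 varied between libraries, from 0 to 7.65 FPKM and from 0.270 to 6.19 FPKM, while Bad-201 was even at 7.86 to 11.6 FPKM. Mcl1-201 held at least 99.4% of Mcl1 and Pmaip1-201 all of Pmaip1.

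**Figure D4:**
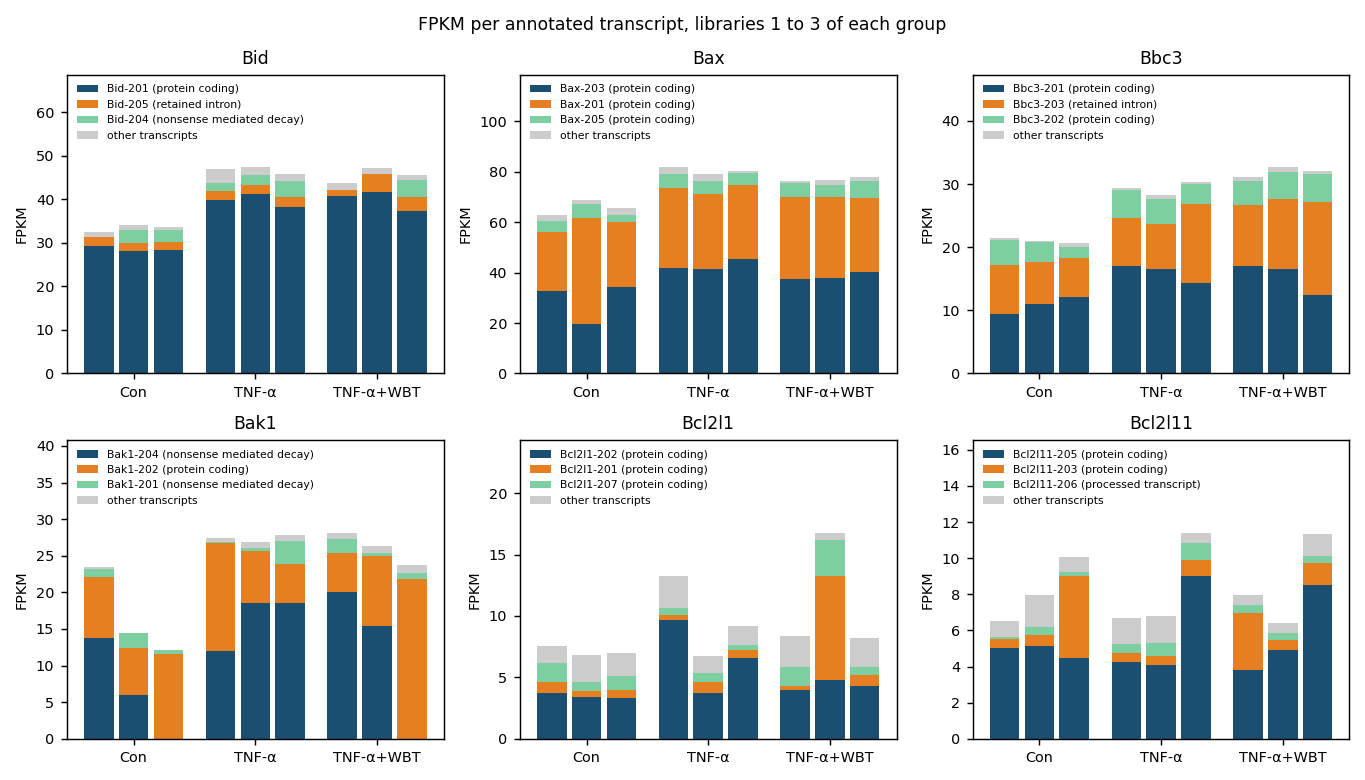
FPKM per annotated transcript (vertical axes, stacked) in libraries 1 to 3 of each group for Bid, Bax, Bbc3, Bak1, Bcl2l1 and Bcl2l11; colours are the 3 transcripts with the highest mean and grey the rest. Bid-201 makes up most of Bid in all libraries, whereas the Bak1 bars change their make-up from library to library and lack Bak1-204 in 2 of them.

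Some members share exon bases with a neighbour in GENCODE M21, and reads of such stretches cannot be told apart where strand is not kept. Bid shares 628 of its 3550 exon bases with Bcl2l13 on the other strand, through Bid-204 and not Bid-201, and Bcl2l13 was at 9.67 to 12.4 FPKM. Bad shares 524 bases with Gpr137, at 11.8 to 16.7 FPKM. Bak1 shares 177 bases with Ggnbp1, which was below 1 FPKM. Bcl2 shares 558 bases with D630008O14Rik, also below 1 FPKM. Bax shares 192 bases with Gm45808 on its own strand, which was listed at 0. No exon overlap was found for Bbc3, Pmaip1, Mcl1, Bcl2l1 or Bcl2l11.

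The rest of the pathway was read from lists of genes. Of 15 other BCL-2 family genes, Bcl2a1a, Bcl2a1b, Bcl2a1d, Hrk and Bcl2l14 were listed at 0 in all libraries. The 3 Bcl2a1 genes are near-identical copies whose reads may have been divided or dropped, so their level is uncertain. By limma 0 of the 10 tested others were called for TNF-α against Con, none had an unadjusted p under 0.05, and limma-voom called 0. The highest of them were Bnip3, a mitophagy receptor induced by low oxygen, at a mean of 81.5 FPKM in Con and 95.1 in TNF-α, and its relative Bnip3l, at 39.4 and 39.1 FPKM.

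Upstream of Bid, 4 of 10 death receptor genes were called higher and 0 lower after TNF-α. Over all tested genes 2.94% were called higher and 1.93% lower, and 8.37% of those whose mean FPKM reached 1 were called in either direction. The counts of the lists that follow stand beside the same shares. Fas, the receptor of FAS ligand, rose from a mean of 1.17 to 6.03 FPKM (log2 fold change 2.28, adjusted p = 6.42e-05 by limma). Tnfrsf10b, the mouse TRAIL receptor, rose from 4.90 to 6.68 FPKM (0.44, adjusted p = 0.00921 by limma). Casp8, which encodes the caspase that cuts BID, rose from 9.42 to 12.6 FPKM (0.41, adjusted p = 0.0129 by limma). Birc2, a ubiquitin ligase that restrains death signalling below TNF receptors, rose from 13.0 to 17.3 FPKM (0.41, adjusted p = 0.0103 by limma). The list thus held inducers and a brake that rose together. Its median log2 fold change was 0.41, beside 0.00 over all tested genes.

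Of p53 and its other targets, 13 of 14 genes were tested, and 5 were called higher and 2 lower. Trp53 itself rose from a mean of 90.0 to 135 FPKM (log2 fold change 0.59, adjusted p = 1.38e-05 by limma). Ccng1, a cyclin, rose from 29.2 to 35.9 FPKM (0.30, adjusted p = 0.00176 by limma), and Eda2r, a receptor of the TNF receptor family, from 12.2 to 14.4 FPKM (0.24, adjusted p = 0.0188 by limma). Gadd45a, a growth arrest gene, fell from 92.7 to 59.0 FPKM (-0.65, adjusted p = 1.14e-05 by limma). The other gene called lower, named after its values were seen, was Sesn1, a stress-induced inhibitor of growth signalling, from 29.2 to 22.6 FPKM (-0.37, adjusted p = 0.00386 by limma). The remaining genes called higher, also named after their values were seen, were Cdkn1a and Zmat3. Cdkn1a rose from 12.9 to 17.2 FPKM (0.42, adjusted p = 0.0362 by limma). Zmat3 rose from 17.96 to 20.6 FPKM (0.20, adjusted p = 0.0273 by limma). The called genes of this list therefore did not all move one way, and more were called higher than lower. The median log2 fold change of the 13 tested genes was 0.11.

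Of the NF-κB survival genes, 9 of 12 were tested (the 3 Bcl2a1 genes were not), and 4 were called higher and 0 lower. Tnfaip3, which encodes the inhibitor A20, rose from 4.31 to 13.7 FPKM (log2 fold change 1.62, adjusted p = 0.00681 by limma). Traf2, an adaptor of TNF receptors, rose from 8.01 to 12.2 FPKM (0.61, adjusted p = 0.00628 by limma). Gadd45b, a stress gene, rose from 32.6 to 46.1 FPKM (0.50, adjusted p = 0.00175 by limma). Birc2 belongs to this list too and was given above. Their median log2 fold change was 0.50.

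Downstream of the pore, limma called 0 of the 12 genes reported, 1 had an unadjusted p under 0.05, and limma-voom called 2. The gene with the low p, named after its values were seen, was Xiap, an inhibitor of caspases. It stood at 13.0 to 15.3 FPKM in Con, at 5.06 to 12.6 in TNF-α and at 12.5 to 15.0 in TNF-α+WBT. Its log2 difference for TNF-α against Con was -1.04 (unadjusted p = 0.00839, adjusted p = 0.113 by limma), past the rule of p and fold change, and for TNF-α+WBT against TNF-α it was 0.94 (unadjusted p = 0.0139, adjusted p = 0.678 by limma). The highest genes of the list, the channel genes Vdac1 and Vdac3, had means of 101 and 82.3 FPKM in Con and 95.8 and 80.5 FPKM in TNF-α. Of 16 genes for proteins that modify or bind BCL-2 family proteins or drive their genes, 2 were called higher and 0 lower. Pim1, a kinase that phosphorylates BAD, rose from 4.25 to 11.6 FPKM (1.42, adjusted p = 3.77e-05 by limma). Foxo3, a transcription factor of Bcl2l11, rose from 28.2 to 36.7 FPKM (0.38, adjusted p = 0.000890 by limma).

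For TNF-α+WBT against TNF-α, limma called 0 genes in each of these lists, as did limma-voom. Unadjusted p-values under 0.05 were reached by 2 of 10 other BCL-2 family genes, 2 of 10 death receptor genes and 5 of 13 p53 genes. So they were by 2 of 9 NF-κB genes, 1 of 12 genes downstream of the pore and 1 of 16 regulators. Over all tested genes they were reached by 1605 of 25417, and by 876 of the 12684 whose mean FPKM reached 1. Trp53 stood at a mean of 130 FPKM in TNF-α+WBT, a log2 difference of -0.05 from TNF-α, and Gadd45a at 66.6 FPKM, a difference of 0.18 with an unadjusted p of 0.000543 and an adjusted p of 0.3003 by limma. Fas stood at 5.75 FPKM and Casp8 at 11.5 FPKM. In the comparison of TNF-α+WBT with Con, 2.31% of all tested genes were called higher and 1.40% lower. That comparison called 2 death receptor genes, 3 NF-κB genes and 2 regulators higher, with none lower. Of the p53 genes it called 7 higher and 2 lower. It called 0 in the lists of other family genes and of genes downstream of the pore, as did limma-voom. In these 2 lists 4 of 10 and 0 of 12 had an unadjusted p under 0.05, beside 3745 of 25417 tested genes.

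**Figure D5:**
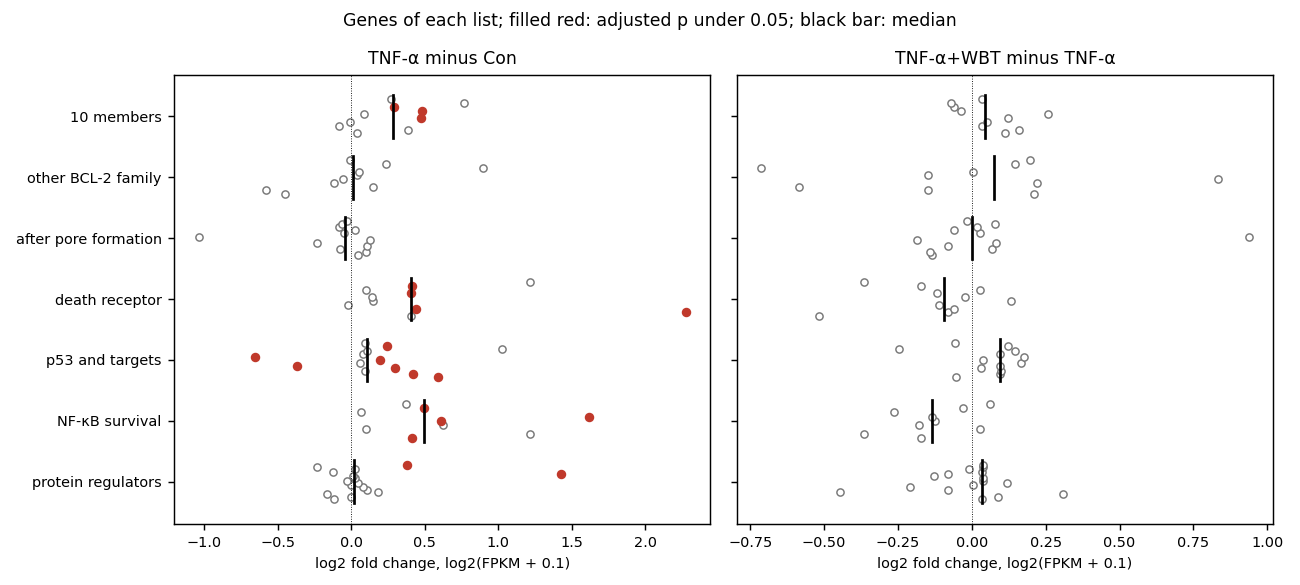
Log2 fold changes (horizontal axes, which differ in range) of the tested genes of each list, for TNF-α minus Con and TNF-α+WBT minus TNF-α; filled red points have an adjusted p under 0.05 and black bars are medians. Filled points stand on the left in all lists but the other BCL-2 family genes and the plotted genes after pore formation, and there is none on the right.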

How the data were processed

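Poly(A) RNA was sequenced as paired ends in 9 libraries with a kit that does not mark strand. The authors deposited FPKM values per gene and per transcript, which their workflow traces to HISAT2, StringTie and Ballgown; versions, build and annotation are not given in the sources used here. Of the gene identifiers, 98.12% had an entry in GENCODE M21, which gave names and coordinates. The test took log2(FPKM + 0.1) of each gene with a value above 0 in 3 or more libraries and used limma 3.58.1 (R 4.3.3; lmFit, eBayes with trend) in 1 model over all libraries, adjusted by the Benjamini-Hochberg method. The pseudocount makes the fold changes of low genes too small. Depth, estimated from the steps of low values of 10717 single-transcript genes, was 16840000 to 26050000 fragments, a rough figure since 51.6% to 55.4% of such values lay within 0.1 of a whole fragment. The study calls its replicates biological; if they share a culture, p-values measure a partly technical spread. All 10 members are named, with up to 4 called genes of each other list by smallest p in any of the 3 comparisons, or the 2 highest in mean FPKM where fewer than 2 were called. From the list of genes downstream of the pore 1 gene is not reported here, and its counts leave it out. Members and lists were chosen with earlier results of these data known. Tables were drawn with Python 3.11.15, pandas 2.3.3, numpy 2.4.6 and matplotlib 3.10.9.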

Additional observations from a re-analysis of the deposited data

How the results depend on the processing

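Bbc3 and Bid were called higher in both comparisons with Con under all 20 alternatives (9 of which leave out 1 library), as was Bax for TNF-α against Con, and no member was called for TNF-α+WBT against TNF-α under any of them. Of 600 values of members under the alternatives, 593 kept their side of the threshold, 4 gained it (Bak1) and 3 lost it (Bax in TNF-α+WBT against Con). The count of genes called for TNF-α+WBT against TNF-α, 1 as reported, was 11 with a pseudocount of 0.01, 7 without the trend, 2 with only the 2 groups compared, 2 with the sum of transcript values, 5 with limma-voom and 0 to 10 when 1 library was left out, the highest without TNF-α+WBT replicate 2. For TNF-α against Con 1236 genes became 823 to 1111, and for TNF-α+WBT against Con 942 became 579 to 826, both lowest without Con replicate 3; fewer libraries were then compared. With a replicate block TNF-α+WBT against TNF-α gave 0 genes and the block changed no member's call. Same-numbered libraries deviated with correlations of -0.0674 to 0.0953 (9 pairs), no more than the other 18 pairs at -0.105 to 0.0966, so the numbers were not taken to pair the libraries. No other scaling moved the median of all genes by over 0.1. Groups of 3 limit the exact test, and Pmaip1, Bcl2l1, Bcl2l11, Bak1 and Bad rest on few fragments or uneven transcripts.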
